A study of Arabidopsis thaliana with 24 samples.

Results

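Gene expression was compared between Arabidopsis thaliana seedlings aged 7 days and 2 days that grew at 22°C without the test compound. The comparison takes 6 of the 24 samples of the series, 3 for each age, and all 33540 genes listed in each. Both groups were wild-type Col-0, grown as whole seedlings on agar that held 0.1% DMSO, the solvent of the compound Heatin, as a mock treatment. Seeds were stratified in the cold and dark, and the plates were then kept at 22°C under short days of 8 h light and 16 h dark. Whole seedlings were frozen at lights on, and RNA from 3 separately harvested batches was combined for each sample. The 18 other samples are the same ages at 27°C, with 8.5 µM Heatin, or with both. Each sample is thus a pool, and the p-values measure the spread between pools.

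An Arabidopsis seed lives first on its reserves. Storage proteins are broken down by proteases, and the oil of the cotyledons passes through peroxisomal beta-oxidation and the glyoxylate cycle to become sugar. In the light the etiolated plastids turn into chloroplasts, protochlorophyllide is reduced to chlorophyllide, and the antenna proteins take up the chlorophyll. Growth of the embryo's organs is followed by the start of the leaves and of the older root tissues.

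The tests covered 23325 genes with a mean of at least 1 normalised read, that is, reads divided by the depth factor of the sample. With limma on log2(value + 1) and an adjusted p below 0.1, 18079 genes differed between the ages, 77.5% of those tested. Of these, 8965 were higher at 7 days (38.4%) and 9114 were lower (39.1%). More than 2-fold, 7307 genes differed (31.3%), 4019 of them higher (17.2%) and 3288 lower (14.1%) at 7 days. More than 32-fold, 180 genes rose and 100 fell. The median absolute change over all genes tested was 0.62 on the log2 scale and the median SE was 0.10, so counts of list members are read below against a background in which most genes moved. The words rose and fell are used for genes past this test. Folds are ratios of group means, and log2 changes are those of log2(value + 1), in which the added 1 shrinks the change where reads are few.

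**Figure D1:**
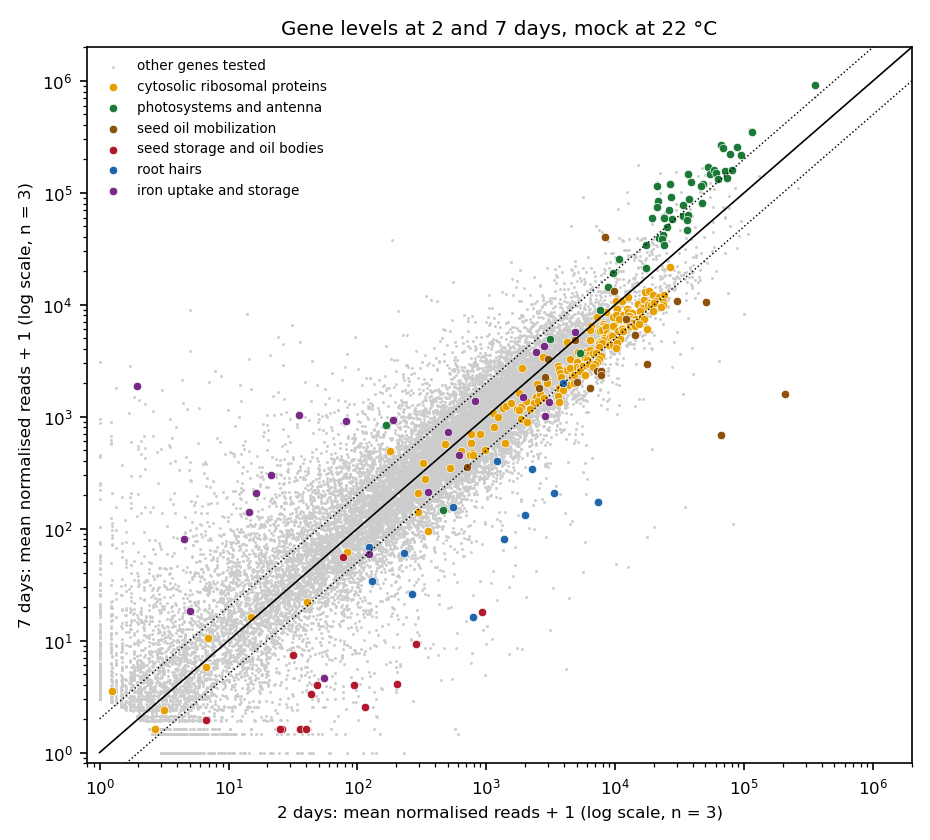
Mean normalised reads + 1 at 2 days (x) and at 7 days (y) of each gene tested, both axes on a log scale, 3 samples an age. Coloured points are the members of 6 lists, the solid line marks equal levels and the dotted lines a 2-fold difference. The photosystem and antenna genes lie above the line at the top right, while seed storage, root hair and oil mobilization genes lie below it.

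The libraries were uneven in depth. Reads on genes numbered 35500788 to 52519494 at 2 days and 21906850 to 29804170 at 7 days, and 1 read was worth 0.708 to 1.05 normalised reads at 2 days and 1.36 to 1.89 at 7 days. The 10 highest genes took 4.86 to 5.03% of the gene reads at 2 days and 9.07 to 9.16% at 7 days. Replicate 3 of the 2-day group stood apart, with a chi-square per gene of 30.3 and 27.9 against the other 2-day replicates, which differed from each other by 3.18. Among the 16390 genes that averaged 100 or more at 2 days, 40 were more than 2-fold above and 35 more than 2-fold below the others in this sample. Values were described for 36 lists holding 924 genes of known role, of which 879 were tested and 775 passed. Without 2-day replicate 3, 4179 genes rose and 3430 fell more than 2-fold, and the counts past 2-fold of 35 of the 36 lists changed by at most 1. The exception was the cytosolic ribosomal proteins, given with their list.

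Several of these lists have recognizable sequences before their genes, and the promoters that show them best are printed here, next to the lists they belong to. Each is the 250 bases before the annotated gene start in TAIR10.1, read 5′ to 3′ on the gene's strand. Capitals mark matches, on either strand, of the motifs given below for that gene or its list. Matches of other motifs stay in lower case, such as GATAAG on the other strand before CRA1 and PORA and TGGGCT before CYCB1;2. The shares below were counted in windows of 300 bases, the 250 upstream and the 50 that follow the start, over the 22124 protein-coding genes tested and, for a list, over all its members with a window, tested or not. The RY motif CATGCA, known as the site of the seed maturation regulators of the B3 family, stood in 93.3% of the windows of seed storage and oil body genes and in 10.03% of all windows. The G-box CACGTG stood in 46.7% and 7.94%. From that list follow the 12S globulin CRA1 (chr5:17758337-17758586, minus strand), the 2S albumin SESA5 (chr5:22239188-22239437, minus strand), in which 2 of the CATGCA matches overlap as CATGCATG, and the oleosin OLEO3 (chr5:20819818-20820067, plus strand).
CRA1: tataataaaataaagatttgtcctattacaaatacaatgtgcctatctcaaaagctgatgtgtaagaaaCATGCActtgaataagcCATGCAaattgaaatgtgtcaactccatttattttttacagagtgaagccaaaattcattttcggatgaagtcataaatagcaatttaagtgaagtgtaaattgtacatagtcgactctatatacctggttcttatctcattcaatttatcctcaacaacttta
SESA5: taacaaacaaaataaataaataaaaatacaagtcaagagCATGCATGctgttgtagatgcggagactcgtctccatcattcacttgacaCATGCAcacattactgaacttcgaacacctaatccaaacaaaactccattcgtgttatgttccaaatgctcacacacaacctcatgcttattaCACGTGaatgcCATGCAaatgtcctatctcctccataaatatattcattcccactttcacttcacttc
OLEO3: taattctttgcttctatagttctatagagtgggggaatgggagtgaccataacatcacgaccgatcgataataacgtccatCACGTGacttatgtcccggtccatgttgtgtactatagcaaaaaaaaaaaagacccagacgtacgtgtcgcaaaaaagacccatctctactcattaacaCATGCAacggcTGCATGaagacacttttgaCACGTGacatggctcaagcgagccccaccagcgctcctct

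In the clock list the evening element AAAATATCT stood in 26.3% of windows against 2.83% of all, and the G-box in 36.8%. The evening element lay before PRR5, TOC1, LUX, BOA and FKF1, none of which rose between the ages. The G-box lay before CCA1, LHY, RVE1, PRR9 and PRR7, which rose, and before LUX and BOA, which fell. The morning gene CCA1 (chr2:19245341-19245590, plus strand) and the evening gene LUX (chr3:17182792-17183041, plus strand) both carry a G-box 193 bases before the start, and LUX an evening element at 53 bases.
CCA1: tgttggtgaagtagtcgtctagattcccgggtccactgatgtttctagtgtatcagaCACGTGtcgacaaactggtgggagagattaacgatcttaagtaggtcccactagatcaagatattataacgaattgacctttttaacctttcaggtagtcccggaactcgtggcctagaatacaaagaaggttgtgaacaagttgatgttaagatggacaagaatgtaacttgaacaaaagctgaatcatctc
LUX: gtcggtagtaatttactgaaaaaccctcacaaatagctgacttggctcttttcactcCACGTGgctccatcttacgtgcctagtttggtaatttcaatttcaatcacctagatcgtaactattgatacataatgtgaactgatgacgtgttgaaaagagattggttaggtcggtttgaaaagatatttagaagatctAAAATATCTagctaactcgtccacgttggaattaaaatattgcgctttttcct

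The mitosis-specific activator element, searched as TCNAACGG, stood in 20% of the windows of cell cycle genes and in 2.67% of all. The mitotic cyclin CYCB1;2 (chr5:1861704-1861953, minus strand) holds 4 matches. Before the genes of cytosolic ribosomal proteins, TGGGCC stood in 56.7% of windows, TGGGCT in 43.3% and the telo-box AAACCCTA in 22.5%, against 16.5%, 14.6% and 4.26% of all windows. The ribosomal protein gene AT3G11120 (chr3:3480770-3481019, plus strand) shows all these motifs, some of them on the other strand. Over all genes, TGGGCC stood in 9.63% of the windows of genes that rose more than 2-fold and in 15.5% of those that fell.
CYCB1;2: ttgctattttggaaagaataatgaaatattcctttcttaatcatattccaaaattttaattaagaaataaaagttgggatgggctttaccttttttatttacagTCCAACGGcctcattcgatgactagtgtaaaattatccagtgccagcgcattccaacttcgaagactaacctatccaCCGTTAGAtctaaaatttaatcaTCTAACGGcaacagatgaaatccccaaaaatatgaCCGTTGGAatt
AT3G11120: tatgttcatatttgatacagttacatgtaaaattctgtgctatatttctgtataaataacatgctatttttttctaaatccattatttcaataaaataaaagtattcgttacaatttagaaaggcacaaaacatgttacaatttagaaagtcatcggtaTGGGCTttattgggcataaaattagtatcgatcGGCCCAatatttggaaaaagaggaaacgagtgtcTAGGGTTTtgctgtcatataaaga

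The G-box stood in 21.6% of the windows of photosystem and antenna genes, and GATAAG, the I-box core, in 23.5% against 14.6% of all windows. PSBQ2 (chr4:2673244-2673493, minus strand), a subunit of the oxygen-evolving complex, has 2 G-boxes and a GATAAG. PORA (chr5:21992815-21993064, minus strand), a protochlorophyllide oxidoreductase, has an evening element 180 bases before its start. These matches describe the letters in the windows only.
PSBQ2: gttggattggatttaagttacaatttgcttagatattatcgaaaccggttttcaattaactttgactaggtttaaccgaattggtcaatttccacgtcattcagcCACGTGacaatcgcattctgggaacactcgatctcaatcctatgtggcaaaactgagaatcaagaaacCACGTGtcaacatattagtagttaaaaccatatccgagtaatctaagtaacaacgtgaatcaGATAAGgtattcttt
PORA: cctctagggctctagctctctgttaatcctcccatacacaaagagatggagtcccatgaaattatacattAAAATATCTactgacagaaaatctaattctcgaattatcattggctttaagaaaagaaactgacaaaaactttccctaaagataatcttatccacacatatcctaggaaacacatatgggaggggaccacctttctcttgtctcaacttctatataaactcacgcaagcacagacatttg

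Transcripts of the seed's stores fell, some to a few reads. Of the 14 genes of seed storage and oil bodies tested, 13 fell more than 2-fold and none rose, with a median log2 change of -4.34 against -0.01 over all genes. CRA1 (AT5G44120), a 12S globulin, was read at 190.3, 403 and 254 in the 2-day samples and at 9.55, 9.44 and 5.75 at 7 days (log2 -4.90 ± 0.30 SE, limma adjusted p = 4.1e-07). SESA5 (AT5G54740), a 2S albumin, was read at 84.2, 143 and 111 and then at 1.36, 1.89 and 1.44. OLEO3 (AT5G51210), a protein of the oil body surface, stood at 928, 1009 and 822 and then at 17.7, 16.99 and 15.8, a fall of 54.6-fold. In all these genes every 2-day sample lay above every 7-day sample. The vicilin-like PAP85 was the member that did not pass, with 82.8, 59.95 and 84.1 against 64.1, 68.0 and 33.0 (log2 -0.50 ± 0.28 SE, limma adjusted p = 0.133). The median of the list was -2.77 with 5 in place of 1 added to the values and -5.13 in edgeR.

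The regulators of seed maturation did not move as a group. Of 19 genes of seed maturation and abscisic acid tested, 6 fell and 4 rose more than 2-fold (median log2 -0.32). ABI3 (AT3G24650), a B3 master regulator of maturation, fell from 349, 314 and 248 to 49.1, 73.6 and 40.2 (log2 -2.49 ± 0.22 SE, limma adjusted p = 5.1e-06). ABI4 (AT2G40220), an AP2-type factor of abscisic acid and sugar responses, was read at 65.1, 86.2 and 24.99 at 2 days and had no read in any 7-day sample, at least 37.6-fold lower against a floor of 3 reads over the group. The late embryogenesis genes EM1 and EM6 fell (log2 -3.74 and -1.51), as did ECP63, which varied among the 2-day samples (153, 243 and 64.4, log2 -3.54 and -2.95 without 7-day replicate 1). Rises came from NCED3 (AT3G14440), the enzyme of abscisic acid synthesis induced by water deficit (56.6, 47.3 and 91.6 against 476, 566 and 672, log2 3.16 ± 0.23 SE), from CYP707A2, an abscisic acid hydroxylase (log2 2.31), from the dehydrin RAB18 (log2 1.66), and from DOG1, the dormancy gene (log2 4.28 and 4.93 without 2-day replicate 3). Seed coat and endosperm markers were few, with 2 of 7 tested lower more than 2-fold. EPR1, an extensin-like gene of the endosperm, was among them (831, 817 and 626 against 8.19, 7.55 and 0, log2 -7.46 and -6.41 without 7-day replicate 3), and BAN, the proanthocyanidin gene of the seed coat, was not tested for want of reads.

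The enzymes that turn seed oil into sugar fell sharply at the glyoxylate cycle and less elsewhere. Of 19 genes, 12 fell and 1 rose more than 2-fold (median log2 -1.43), and their share of the gene reads went from 1.25% to 0.283%. ICL (AT3G21720), isocitrate lyase, was among the 5 highest genes at 2 days by reads, at 228380, 240737 and 157442, and stood at 1169, 3016 and 605 at 7 days, 131-fold lower (log2 -7.32 ± 0.46 SE, limma adjusted p = 5.5e-07). The 7-day samples of this gene differed among themselves, and without 7-day replicate 2 the log2 change was -7.93. MLS (AT5G03860), malate synthase, fell from 75706, 73845 and 48420.1 to 660.3, 736 and 659, 96.3-fold lower (log2 -6.56 ± 0.15 SE, limma adjusted p = 3.1e-09). For both enzymes 2-day replicate 3 was the lowest of its group, yet far above any 7-day sample. PCK1 (AT4G37870), which makes phosphoenolpyruvate for gluconeogenesis, fell 4.79-fold and the beta-oxidation enzyme MFP2 5.94-fold. The lipase gene SDP1, which starts the breakdown of oil, rose by 0.14 on the log2 scale but stood at -0.0065 under scaling to the total of gene reads, and AIM1, another beta-oxidation enzyme, had 4835, 4904 and 4858 against 4688, 4666 and 5021 (log2 -0.02 ± 0.05 SE, limma adjusted p = 0.686). PMDH2 (AT5G09660), a peroxisomal malate dehydrogenase, was the member that rose more than 2-fold (7873, 8164 and 8939 against 38976, 41606 and 39438, 4.81-fold).

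Chlorophyll synthesis was split. Of 24 genes, 12 fell and 5 rose more than 2-fold (median log2 -1.01), and all 24 passed the test in some direction. PORA (AT5G54190), the protochlorophyllide reductase of etiolated tissue, was read at 87862, 92803 and 64259 at 2 days and at 109, 119 and 99.1 at 7 days, 748-fold lower (log2 -9.52 ± 0.13 SE, limma adjusted p = 2.4e-10). PORB (AT4G27440) fell 12.2-fold, from 108259, 114420 and 77895 to 8393, 8489.7 and 7734, and PORC fell least of these reductases (log2 -0.81). Enzymes of the early steps from glutamate to protoporphyrin, GSA1, GSA2, HEMB1, HEMC, HEME2 and LIN2, fell by 1.16 to 1.73 on the log2 scale. HEMA1, the glutamyl-tRNA reductase at the head of the pathway, rose (10745, 11022 and 13413 against 29183, 31024 and 31546), as did the magnesium chelatase subunit GUN5, the cyclase subunit CRD1, chlorophyllide a oxygenase CAO and the geranylgeranyl reductase CHLP, by 1.07 to 1.54 on the log2 scale.

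Genes of the photosystems and antennae rose almost throughout. Of 51 tested, 49 rose and 2 fell, 33 and 1 of them more than 2-fold (median log2 1.25), and together they took 6.01% of the gene reads at 2 days and 14.1% at 7 days. LHCB1.3 (AT1G29930), an antenna protein of photosystem II, had the highest mean of all genes at both ages, 336493, 340053 and 380066 and then 920964, 913344 and 926796 (log2 1.39 ± 0.18 SE, limma adjusted p = 6.8e-05). At 2 days its mean of 352204 hardly exceeded the 351731 of the Rubisco gene RBCS1A, which was higher in replicate 2. LHCA4 (AT3G47470), an antenna protein of photosystem I, rose from 57426, 57298 and 82476 to 266048, 269741 and 270207, 4.09-fold higher. PSBQ2 (AT4G05180) rose from 18811, 20249.7 and 25633 to 83339, 85527 and 85068 and PSBO1, another subunit of the oxygen-evolving complex, from 80402, 81468 and 99784 to 252790, 257930 and 264464. At 2 days replicate 3 was the highest of its group in LHCB1.3, LHCA4, PSBQ2 and PSBO1, and the ages did not overlap. The genes that fell were LHCB4.3 (435, 468 and 473 against 161, 134 and 139) and the minor antenna gene LHCA6 (log2 -0.54). Reads of LHCB1.1, LHCB2.1 and LHCB2.2 are less certain, since 20.5%, 23.6% and 29.5% of their 50-base windows occur elsewhere in the genome, and LHCB1.5 overlaps a gene on the other strand over 100% of its exons in counts that ignored strand.

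In the Calvin cycle 10 of 19 genes rose and none fell more than 2-fold (median log2 1.03). The Rubisco small subunit RBCS1A (AT1G67090) went from 334578, 350668 and 369948 to 725752, 728018 and 701114 (log2 1.03 ± 0.17 SE, limma adjusted p = 3.5e-04), while RBCS3B was nearly level, at 120809, 131736 and 140262 and 143025, 143397 and 136457 (log2 0.11 ± 0.11 SE, limma adjusted p = 0.379). RCA (AT2G39730), Rubisco activase, rose 3.43-fold, and CP12-2, a small protein that binds Calvin cycle enzymes in the dark, rose from 432, 459 and 548 to 5641, 5549.6 and 6479. Transketolase TKL1 was the member that fell (log2 -0.24).

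Photorespiration rose with them, 7 of 10 genes more than 2-fold and none falling (median log2 1.46). GGT1 (AT1G23310), the peroxisomal glutamate:glyoxylate aminotransferase, went from 12794, 12895 and 18949 to 169702, 186168 and 177952, 11.96-fold higher (log2 3.60 ± 0.14 SE, limma adjusted p = 4.1e-08). GOX1 (AT3G14420), glycolate oxidase, rose 8.19-fold and its neighbour GOX2 1.68-fold. The list's share of gene reads went from 0.343% to 1.35%. PGLP1 was not called, and 100% of its 50-base windows occur elsewhere in the genome.

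**Figure D2:**
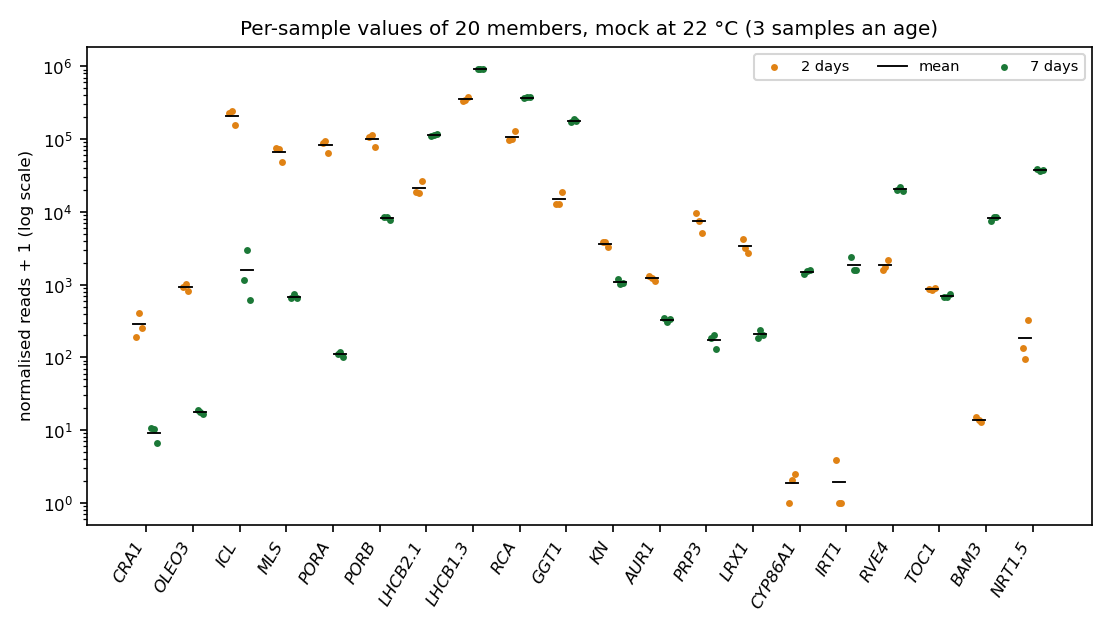
Normalised reads + 1 on a log scale (y) for 20 list members (x), each point a sample, orange for 2 days and green for 7 days, with a black line at the mean of 3 samples. PORA lies 748-fold lower at 7 days and IRT1 and CYP86A1 are near 0 at 2 days, while TOC1 hardly moves.

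The genes above are nuclear. Chloroplast-encoded genes took 0.0144 to 0.0152% of gene reads at 2 days and 0.0295 to 0.0361% at 7 days. The study does not say how RNA was selected for the libraries, so these shares do not measure the level of plastid transcripts.

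Genes of cell division fell together. Of 40 genes of the cell cycle and DNA replication, 39 fell, 35 of them more than 2-fold, and 1 rose (median log2 -1.44). PCNA1 (AT1G07370), the sliding clamp of replication, went from 1291, 1275 and 1072 to 326, 270.0 and 303 (log2 -2.01 ± 0.10 SE, limma adjusted p = 1.1e-07). KN (AT1G08560), the syntaxin of the cell plate, went from 3867, 3813 and 3310 to 1179, 1019.7 and 1047, and shares 33.5% of its exon bases with a gene on the other strand. The cyclin CYCB1;2, whose promoter is printed above, went from 2019, 2075 and 1741 to 697, 570.3 and 611. The 6 MCM helicase genes fell by 1.35 to 1.5 on the log2 scale. CYCD3;2, a D-type cyclin, was the member that rose (2518, 2521 and 2231 against 3139, 3422 and 3008, log2 0.40). Of 5 genes of endoreduplication, 4 fell, the cyclin-dependent kinase inhibitors LGO and SIM, the anaphase-promoting complex activator CCS52A1 and, past 2-fold, DEL1 (log2 -1.35). CCS52A2 was not called (log2 0.16). In RNA from whole seedlings, fewer cells of a type and less RNA per cell cannot be told apart, here and in the lists that follow.

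Most genes of cytosolic ribosomal proteins fell, and most of them by less than 2-fold. Of 177 genes tested, 152 fell and 6 rose, with 39 and 1 past 2-fold and a median log2 change of -0.72. Their share of the gene reads went from 3.65% to 1.98%. AT3G11120 went from 4148, 3474 and 3344 to 1547, 1074 and 1402 (log2 -1.46 ± 0.13 SE, limma adjusted p = 5.1e-06), and the member that rose more than 2-fold was AT5G39850, at 163, 198 and 173 and 494, 523 and 471. The count that fell past 2-fold was 57 without 2-day replicate 3, where the median was -0.81, and 65 when the values were scaled to the total of gene reads. AT1G58684, AT1G58983 and AT1G59359 had too few reads to test, and 100% of their windows are found elsewhere.

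Of 37 genes of the shoot meristem and leaf patterning, 7 fell and none rose more than 2-fold (median log2 -0.38), and under scaling to the total of gene reads the falls numbered 12. The largest falls were in the growth-regulating factor GRF2 (1616, 1541 and 1421 against 348, 302 and 299), the leaf factor TCP3 (log2 -2.18) and the lateral organ factor AS2 (log2 -1.87). PDF1 (AT2G42840), a marker of the epidermal layer, went from 46191, 44016 and 40072 to 12790.1, 13541 and 11758. The meristem gene STM rose slightly (log2 0.37) and CLV1, a receptor kinase of the meristem, by 0.56 on the log2 scale. Others of the list fell, KNAT1 by 0.90, AIL6 by 0.99 and CLV3, at few reads, by 1.86 (means of 8.30 and 1.56).

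In the stomatal lineage, genes of the early steps fell and a gene of the last step rose. Of 14 genes, 9 fell and 1 rose more than 2-fold (median log2 -1.31). SPCH (AT5G53210), which starts the lineage, fell from 536, 529 and 455 to 171, 136 and 134 (log2 -1.79 ± 0.12 SE, limma adjusted p = 7.7e-07), and MUTE, which ends the divisions of the meristemoid, from 67.9, 62.1 and 71.2 to 20.5, 18.9 and 18.7. The polarity gene BASL fell most (log2 -2.63). FAMA, which acts in the guard mother cell, rose from 389, 373 and 338 to 709, 721 and 771 (log2 1.00 ± 0.08 SE), and the guard cell factor MYB60 rose by 0.34 on the log2 scale. Without 2-day replicate 3, and likewise under scaling to total reads, FAMA no longer exceeded 2-fold.

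Trichome genes went both ways, 4 up and 4 down of 12 past 2-fold. GL1 (AT3G27920), the MYB factor that starts leaf hairs, was read at 0, 1.05 and 2.27 at 2 days and at 61.4, 41.5 and 43.1 at 7 days (log2 4.70 ± 0.45 SE, limma adjusted p = 8.7e-06). TRY, an inhibitor of neighbouring hairs, rose (log2 1.53), while the root and shoot inhibitor ETC1 fell (log2 -2.68) and the bHLH partners GL3 and EGL3 fell by 1.22 and 1.16.

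In the root, the hair genes fell and a pair of suberin genes rose from near 0. All 13 root hair genes fell, 11 of them more than 2-fold (median log2 -2.74). RSL4 (AT1G27740), the bHLH factor that sets hair growth, went from 311, 266 and 216 to 27.3, 26.4 and 21.5 (log2 -3.34 ± 0.18 SE, limma adjusted p = 1.9e-07). The cell wall proteins of the hair fell further, PRP3 from 9585, 7389.7 and 5179 to 186, 202 and 129 and LRX1 from 4184, 3174 and 2687 to 186, 239.8 and 201. RHD6, the factor upstream of RSL4, fell least (log2 -0.86). Of the root's 13 patterning genes, 2 rose and 1 fell more than 2-fold. The fall was that of WER (log2 -1.55), and PLT1 and PLT2 fell by 0.91 and 0.65. SHR stood at log2 -0.20, SCR at -0.53 and the Casparian strip protein CASP1 at 0.46. The rises past 2-fold belonged to suberin synthesis. CYP86A1 (AT5G58860), a fatty acid omega-hydroxylase, was read at 0, 1.05 and 1.51 at 2 days and at 1389, 1522 and 1593 at 7 days (log2 9.76 ± 0.31 SE, limma adjusted p = 1.5e-08). It had 3 reads over the 2-day group, and the ratio of reads was 1839, with a 95% exact counting interval of 629 to 8924. GPAT5, the acyltransferase of the same pathway, went from 0, 1.05 and 6.82 to 549.8, 693 and 704 (log2 8.00, and 7.33 to 8.82 with 1 of the 2-day samples left out).

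Genes of vascular tissue and secondary walls rose, 8 of 14 more than 2-fold and none falling (median log2 1.13). The secondary wall cellulose synthases CESA4, CESA7 and CESA8 rose by 1.13 to 1.19 on the log2 scale. LAC17 (AT5G60020), a laccase of lignin formation, went from 167, 177 and 279 to 823, 889 and 906, and the xylem protease XCP2 from 631, 697 and 946 to 2982, 2719 and 2915. APL rose by 1.36 and the phloem sucrose carrier SUC2 by 0.21 on the log2 scale.

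Wall-loosening families were divided among their members. Of 20 alpha-expansins, 10 fell and 2 rose more than 2-fold (median log2 -1.09), and of 32 xyloglucan XTH enzymes 13 fell and 8 rose (median log2 -0.70). EXPA7 and EXPA18, both root hair expansins, fell by 3.92 and 4.07, EXPA2, known from germinating seeds, fell from 220.0, 299 and 115 to 6.82, 5.66 and 2.87, and EXPA16 rose from 134, 147 and 151 to 879, 1237 and 1485. XTH26 (AT4G28850), a root hair XTH, went from 662, 661 and 306 to 5.46, 3.78 and 1.44 (log2 -6.92 ± 0.40 SE, limma adjusted p = 3.1e-07), and XTH12, XTH13 and XTH14 fell by 5.29 to 6.37. XTH6 (AT5G65730) rose from 54.5, 37.9 and 146 to 2519.8, 3040.1 and 2801.

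Auxin-responsive families moved in both directions. Among 28 Aux/IAA repressors, 7 rose and 6 fell more than 2-fold (median log2 0.30), and among 73 SAUR genes 30 rose and 15 fell (median log2 0.68). IAA20 (AT2G46990), of the group that lacks the canonical degron, went from 947, 917 and 939 to 12.3, 13.2 and 8.62 (log2 -6.26 ± 0.17 SE, limma adjusted p = 6.4e-09) and IAA32, of the same kind, from 257, 292 and 258 to 1.36, 0 and 4.31, a log2 change of -6.86 that was -6.25 without 7-day replicate 2 and -7.45 without replicate 3. IAA29 (AT4G32280) rose from 284, 279.8 and 354 to 1517, 1643 and 1707. SAUR11 (AT5G66260) was read at 239, 202 and 249.9 at 2 days and had no read in any 7-day sample, at least 147-fold lower against 3 reads over the group. SAUR31 rose most in its family (log2 4.38).

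Of 24 gibberellin genes, 8 fell and 2 rose more than 2-fold (median log2 -0.03, a sign that was not the same under every setting). The synthesis genes GA3OX1 (1992, 1973 and 1998 against 315, 334 and 409), GA20OX1 and GA20OX3 fell, by 2.50, 1.55 and 3.12, and the receptors GID1A, GID1B and GID1C rose by 0.62 to 0.99. Of the DELLA repressors, RGL2 and RGL1 fell (log2 -1.40 and -1.10), GAI rose by 0.44, and RGA1 was level at 4796, 4566 and 4986 and 4963, 4887 and 5311. Of 10 type-A response regulators of cytokinin, 3 rose (ARR6, ARR7 and ARR9) and 2 fell (ARR3 and ARR17) more than 2-fold.

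**Figure D3:**
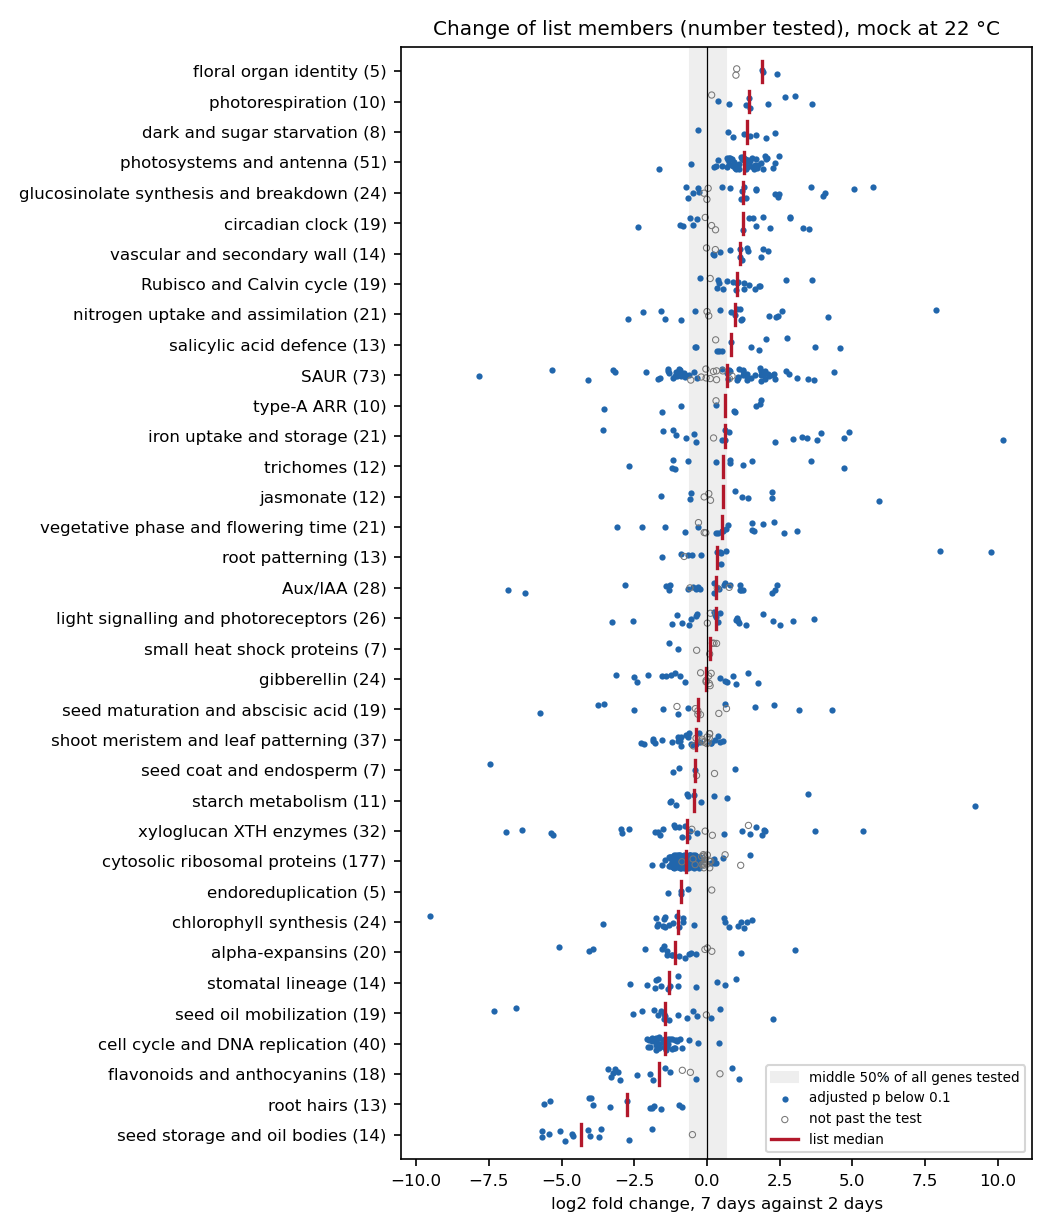
Log2 change from 2 to 7 days (x) of every tested member of the 36 lists (y, number tested in brackets), filled where the adjusted p was below 0.1 and open where not. Red bars are list medians and the grey band holds the middle 50% of all genes tested. Medians run from -4.34 for seed storage and oil bodies to 1.88 for floral organ identity, a list of few reads.

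At lights on, clock genes of the morning were higher in the older seedlings. Of 19 clock genes, 10 rose and 1 fell more than 2-fold (median log2 1.23). CCA1 (AT2G46830) went from 3648, 3491 and 3958 to 13337, 14815 and 13620.1 (log2 1.91 ± 0.06 SE, limma adjusted p = 1.8e-08) and LHY, its partner, from 9235, 8904 and 10624 to 27853, 30273 and 28546. The coactivator LNK2 (6735, 6299 and 8163 against 48942, 55608 and 47809) and the MYB-like factors RVE1 and RVE4 (log2 3.31 and 3.49) rose more. Genes of the evening moved less, TOC1 from 880.2, 845 and 891 to 671, 670.3 and 734 and LUX from 369, 371 and 403 to 267, 281 and 270.1, both falling, and GI stood at 135, 170.4 and 159.8 and 149, 155 and 141 (log2 -0.06 ± 0.12 SE, limma adjusted p = 0.675). A single time of day was sampled, so phase and level cannot be told apart, here and in the light, starch and darkness lists that follow.

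In light signalling 9 of 26 genes rose and 4 fell more than 2-fold (median log2 0.29). PIF4, PIF5 and PIF7, bHLH factors of growth in shade and warmth, rose by 2.97, 2.51 and 3.69, PIF4 from 410.4, 378 and 623 to 3525, 3686 and 3601. The phytochrome PHYA, which acts in etiolated seedlings, fell from 37509, 39189.9 and 42516 to 19034, 19923 and 19362, PHYB rose by 0.43, and the early light-induced ELIP1 and ELIP2 fell by 2.53 and 3.26.

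Of 11 starch genes 2 rose and 3 fell more than 2-fold (median log2 -0.45). The largest change was that of BAM3 (AT4G17090), the chloroplast beta-amylase of starch breakdown at night, which went from 14.2, 12.6 and 12.1 to 7476, 8628 and 8546 (log2 9.20 ± 0.09 SE, limma adjusted p = 7.2e-11). GBSS1, granule-bound starch synthase, rose from 495, 496 and 585 to 5345, 6037 and 6225. Of 8 genes that respond to darkness and sugar starvation, 5 rose and none fell more than 2-fold, among them the hexose carrier STP1 (4520.4, 4134 and 5933 against 26141, 26583 and 21178) and DIN1 (log2 1.27).

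In the list of iron uptake and storage 9 of 21 genes rose and 4 fell more than 2-fold (median log2 0.62). IRT1 (AT4G19690), the iron carrier of the root surface, was read at 2.83, 0 and 0 at 2 days and at 2416, 1582 and 1579 at 7 days (log2 10.19 ± 0.47 SE, limma adjusted p = 8.8e-08, and log2 10.83 without 2-day replicate 1). FRO2, the root's ferric reductase, rose from 67.2, 95.7 and 80.3 to 1191, 719 and 815 and the nicotianamine synthase NAS1 from 39.6, 28.4 and 34.1 to 1287, 893 and 938. FIT, the bHLH factor upstream of IRT1 and FRO2, rose only by 0.51, while its partners BHLH38 and BHLH39 rose by 4.70 and 3.91. Without 2-day replicate 2 or 3 the change of BHLH38 was 3.89 or 5.50 on the log2 scale. The vacuolar loader VIT1, which stocks iron in the seed, fell from 63.7, 38.9 and 59.1 to 2.73, 3.78 and 4.31, and the ferritins FER2, FER3 and FER4 fell by 1.05 to 1.51.

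In nitrogen uptake and assimilation 10 of 21 genes rose and 4 fell more than 2-fold (median log2 0.98). NRT1.5 (AT1G32450), which loads nitrate into the xylem, went from 133, 92.6 and 323 to 38242, 36706 and 37959.9 (log2 7.88 ± 0.35 SE, limma adjusted p = 7.4e-08). NIA2 (AT1G37130), the main nitrate reductase, went from 18420, 17422 and 27437 to 116510, 124492 and 132624. The cytosolic glutamine synthetases GLN1;1 and GLN1;3 fell by 2.2 and 1.44, and the chloroplast enzyme GS2 rose by 0.98. Asparagine synthetase ASN1 was read at 2875, 2755 and 9042 at 2 days, replicate 3 standing apart, and at 21817, 25631 and 18286 at 7 days.

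Secondary metabolism went in opposite ways for its main classes. Flavonoid genes fell, 11 of 18 more than 2-fold with 2 rising (median log2 -1.64). CHS (AT5G13930), chalcone synthase, went from 1774, 1765 and 1637 to 456, 366 and 536 and FLS1, flavonol synthase, from 764, 702 and 644 to 83.2, 60.4 and 94.8 (log2 -3.15 ± 0.16 SE, limma adjusted p = 1.4e-07). The anthocyanin activator PAP1 fell from 44.6, 46.3 and 37.9 to 2.73, 3.78 and 2.87, and MYBL2 (AT1G71030), known as a repressor of anthocyanin synthesis, rose from 17.7, 21.0 and 30.3 to 1714, 1875 and 1365 (log2 6.13 ± 0.19 SE, limma adjusted p = 1.4e-08). Glucosinolate genes rose, 14 of 24 more than 2-fold with none falling as far (median log2 1.24). Large rises were seen in the methionine-derived branch, with CYP83A1 (AT4G13770) at 2.12, 3.16 and 3.03 and then 183, 123 and 315, the chain-elongation enzyme MAM1 at 7.08, 7.36 and 5.30 and then 222, 172 and 394, and their activator MYB28 up by 2.33. In the tryptophan-derived branch CYP83B1 and CYP79B2 fell by 0.28 and 0.72 and CYP79B3 rose by 1.27.

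Defence genes differed widely in level, with ICS1 at a mean of 1038 at 2 days and 797 at 7 days. Of 13 genes of salicylic acid defence 6 rose and none fell more than 2-fold (median log2 0.82), led by PR5 (AT1G75040), with no read in any 2-day sample and 17.7, 34.0 and 20.11 at 7 days, at least 28.5-fold higher against 3 reads over the group. PR1 and PR2 had too few reads to test, and ICS1 and EDS5 fell by 0.38 and 0.40 on the log2 scale. Of 12 jasmonate genes 5 rose and 1 fell, with LOX2 (AT3G45140), the chloroplast lipoxygenase, at 5.66, 4.21 and 6.82 and then 381, 404 and 384 (log2 5.91 ± 0.20 SE, limma adjusted p = 1.7e-08). Of 7 small heat shock proteins none rose and 2 fell, HSP22.0 and HSP23.6-MITO (median log2 0.09, a sign that was not the same under every setting). Their calls were lost without 2-day replicate 1, 2-day replicate 2 or 7-day replicate 1, with limma adjusted p-values of 0.105 to 0.164 for HSP22.0 and 0.120 to 0.159 for HSP23.6-MITO, and the log2 change of HSP22.0 went from -1.30 to -0.69 without the last of these.

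Among genes of phase change and flowering time, 7 of 21 rose and 3 fell more than 2-fold (median log2 0.50). The MADS factors SVP (AT2G22540), a repressor of flowering, and SOC1 (AT2G45660), a promoter, both rose, SVP from 144, 138 and 191 to 1239, 1388 and 1432 and SOC1 from 27.6, 27.3 and 24.2 to 176, 164 and 172. TOE2, an AP2-like repressor and target of miR172, fell (log2 -1.46), and TEM1 and TEM2, repressors of FT, rose by 1.94 and 1.55. FT itself had too few reads to test. Floral organ identity genes served as markers of a tissue the seedlings should lack. Their summed level was 38.9 to 49.5 normalised reads at 2 days and 178 to 225 at 7 days, with 3 of 5 tested rising more than 2-fold (PI, SEP1 and SEP3), AP1 and AG untested at a mean below 1, and SEP3 the highest at 108, 106 and 105 at 7 days. The median of this list, 1.88, was 0.84 with a pseudocount of 5 and 1.06 without the filter on low values.

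Over all genes, the 12 largest rises and the 12 largest falls were taken among those with a group mean of at least 100. IRT1, CYP86A1, PORA and SAUR11, described above, were among them. AT3G05727, annotated as related to a pollen coat binding protein, had no read in any 2-day sample and 3154, 3549.9 and 2514 at 7 days, at least 3663-fold higher against 3 reads over the group. AT4G22513, of the lipid-transfer protein family, and AT2G33850, annotated as E6-like, had no read at 2 days either, and were at least 1139-fold and 1042-fold higher. The glycine-rich protein gene GRP9 (AT2G05440) went from 3.54, 1.05 and 7.57 to 8690.4, 7379 and 10972 (log2 11.01 ± 0.42 SE, limma adjusted p = 3.3e-08), and CIPK20 (AT5G45820), a protein kinase, from 0.708, 0 and 0 to 930.4, 963 and 786. AT2G32870, of the TRAF-like family, had 1 read over the 2-day group and rose to 1748, 1862 and 1843. AT2G23540, annotated as a GDSL lipase, and AT2G22510, a hydroxyproline-rich glycoprotein gene, rose by 9.78 and 9.57 on the log2 scale, and by 10.45 and 10.33 without 2-day replicate 3. AT4G22485, AT4G22505 and AT4G22513 lie side by side on chromosome 4, and 93.5%, 92.3% and 60.9% of their exon bases overlap a gene on the other strand, so their reads cannot be assigned to a strand.

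Among the falls, GH9B15 (AT4G23560), an endoglucanase-like glycosyl hydrolase, went from 4399, 4384 and 3743 to 1.36, 9.44 and 2.87, 916-fold lower (log2 -9.83 ± 0.43 SE, limma adjusted p = 6.7e-08, and log2 -10.43 without 7-day replicate 2). The cysteine proteases CP1 (AT4G36880) and AT1G29090 fell 227-fold and 287-fold, CP1 from 40301, 39535 and 25073 to 126, 155 and 181. AT1G29090 changed by -8.48 on the log2 scale and by -7.66 without 7-day replicate 3. HEC2 (AT3G50330), a bHLH factor, fell from 2049.7, 1602 and 1502 to 6.82, 13.2 and 2.87. AT2G47780, annotated as a rubber elongation factor protein, fell from 18808, 18606 and 15274 to 84.6, 68.0 and 97.7. G3Pp2, also known as root hair specific 15, the extensin-like AT5G06630 and the pectin methylesterase inhibitor-like AT5G46960 fell 223-fold, 273-fold and 253-fold. The log2 change of G3Pp2 was -7.79, and -7.20 without 7-day replicate 2. The F-box gene AT1G20790 went from 552, 574 and 662 to 0, 0 and 1.44 and the cytochrome P450 gene CYP96A3 from 642, 645 and 410.4 to 0, 1.89 and 0. Each had 1 read over the 7-day group, so that the fold is known only within a 95% exact counting interval of 210-fold to 46212-fold and of 197-fold to 43315-fold, which covers counting error only. In 32.1% of its 50-base windows AT5G06630 matches another place in the genome. PYK10 (AT3G09260), a beta-glucosidase of endoplasmic reticulum bodies and among the 5 highest genes at 2 days, fell from 271660, 278426 and 239392 to 103301, 108404 and 118388.

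The same ages were sampled in separate seedlings at 27°C in the mock and at 22°C with Heatin. In the 27°C mock 35.6% of genes tested were higher and 34.6% lower at 7 days. Of the genes that rose more than 2-fold at 22°C, 3941 were tested there, 80.8% rose too and 2.82% fell. Of those that fell, 3174 were tested, 82.3% fell too and 1.67% rose. With Heatin at 22°C, where 36.8% of genes tested were higher and 37.8% lower, 94.6% of 3966 genes rose again and 94.3% of 3248 fell again. In the opposite direction stood 2 and 3 genes.

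**Figure D4:**
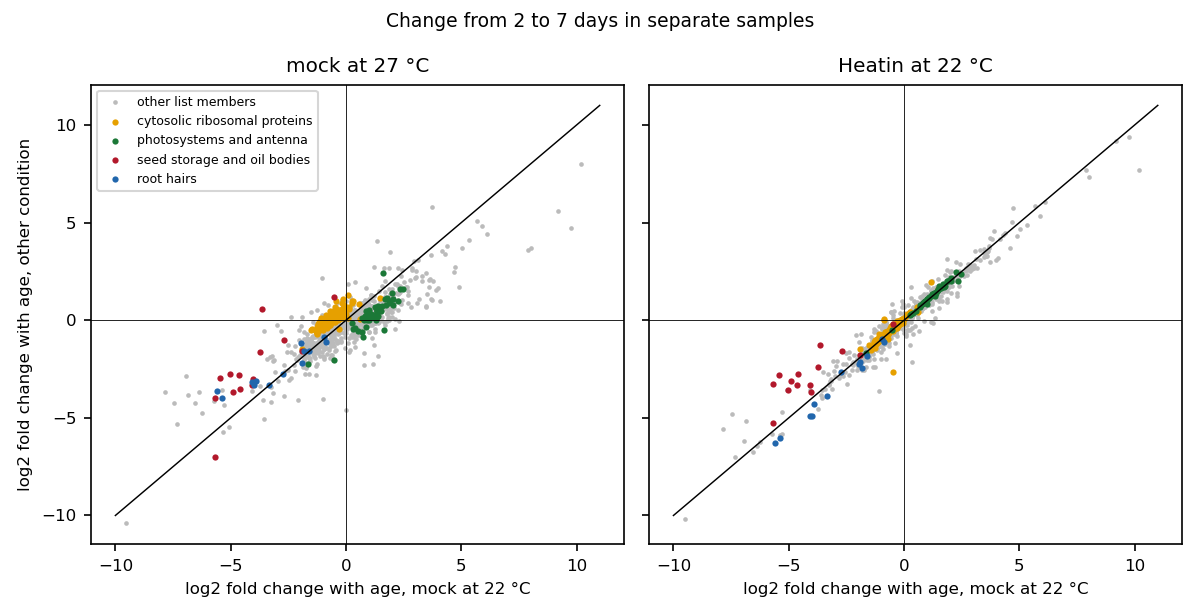
Log2 change from 2 to 7 days in the 22°C mock (x) and in the 27°C mock or with Heatin at 22°C (y) for the list members, with 4 lists in colour and the line of equality. At 27°C the ribosomal protein genes lie above the line and the photosystem genes below it, while with Heatin both lie along it.

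The size of the change with age differed between 22°C and 27°C at 11828 of 23405 genes (50.5%), by a test of the difference itself in limma. Against that background, 165 of 176 cytosolic ribosomal protein genes differed, 164 of them with a change less negative or more positive at 27°C, where their median was -0.01. All 47 of the 51 photosystem and antenna genes that differed had a smaller rise or a fall at 27°C (median 0.26). So had 17 of 19 Calvin cycle genes, 10 of 10 photorespiration genes and 12 of 14 genes of vascular tissue and secondary walls. Of the 19 genes of oil mobilization, 16 differed, 15 of them with a higher change at 27°C, MLS among those with -4.26 there. None of the 13 genes of the root hair list was called different, and their median at 27°C was -2.78. At 3 samples a group this does not show that they changed alike. Outside that list, the root hair genes XTH26 and G3Pp2 fell less at 27°C, by 4.08 and 2.90 on the log2 scale. CYP86A1 and IRT1 rose by 4.70 and 8.00 at 27°C, less than at 22°C by 5.07 and 2.18.

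Between the mock and Heatin at 22°C, the change with age differed at 34 of 23366 genes (0.146%), 18 with a higher and 16 with a lower change under Heatin. At an unadjusted p below 0.05 there were 1333, which is 5.705% of the genes, where 5% pass such a threshold when nothing differs. With 1 sample left out, the adjusted test gave 11 to 59 genes, and with a replicate block 71. Single list members were among the 34. The homeobox gene GL2, which represses hairs in the root, had a log2 change of 0.47 in the mock and -0.30 with Heatin, KNAT1, a homeobox gene of the meristem, -0.90 and -0.30, and TGG2, a myrosinase, 1.18 and -0.11. CHS changed by -1.94 and -1.10, IAA17 by -0.49 and 0.14, and XTH17 by -0.58 and 0.41. Of the 12 fits with 1 sample left out, all 12 kept the call of GL2, 8 that of KNAT1, 7 that of TGG2, 4 that of CHS and 3 each those of IAA17 and XTH17. For the photosystem, ribosomal, cell cycle, root hair and seed storage lists none of the members differed by this test, which at 3 samples a group does not show that they changed alike.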

How the data were processed

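RNA was sequenced as 50-base single-end reads. The deposited signal is, per the labels and the methods, reads per gene from TopHat alignment to TAIR10 and HTSeq-count without strand, which the authors divided by a DESeq depth factor. Every value came out as a whole number of reads within 0.01. Here, limma 3.58.1 (R 4.3.3, with a trend) was fitted to log2(value + 1) of the 6 samples, for genes with a mean of at least 1, and p-values were adjusted by Benjamini-Hochberg at a threshold of 0.1. The change with age was compared between conditions by a contrast of 4 groups of 3 samples. edgeR 4.0.16 and voom on the whole reads, other scalings, pseudocounts, filters and left-out samples were tried. In simulated data with 200 changed genes among 22997, 86.4% of 2-fold and 97.8% of 4-fold changes were recovered, and 18.7% of calls were unchanged genes. The changed genes were drawn from those with a 2-day mean of at least 10, so recovery at fewer reads was not tested. Far fewer genes changed there than in the data, so the share of unchanged calls does not carry over. The samples share replicate numbers, but the deviations of same-numbered samples correlated by 0.004 to 0.035 only, so no pairing was used.

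Named genes were the 12 largest rises and 12 largest falls that passed the test without overlap and reached a group mean of 100, the 5 highest genes at each age, and members of the lists, of which 8 members were dropped because symbol and identifier did not match. From the ribosomal list, taken from the annotation's terms, 7 plastid or mitochondrial proteins were removed. The comparison and the lists were chosen with earlier results of these data known. Gene names, promoters and overlaps came from the RefSeq annotation of TAIR10.1, which held 32835 of the 33540 identifiers. Tables were made with Python 3.11.15 and pandas 2.3.3, figures with matplotlib 3.10.9.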

Additional observations from a re-analysis of the deposited data

Results flagged for a closer look

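The change with age differed between the 22°C and the 27°C mock, by a test of the difference itself, at 11828 genes, and between the mock and Heatin at 22°C at 34. Among the genes with the largest changes at 22°C, the difference is given as the log2 change at 27°C less that at 22°C. For the rises it was -1.78 for AT3G05727, -5.15 for GRP9, -2.20 for AT4G22505, -3.68 for AT2G32870, -2.18 for IRT1 and -3.60 for AT4G22513. It was -4.42 for AT2G23540, -2.57 for AT2G33850, -5.07 for CYP86A1, -1.40 for AT4G22485 and -4.83 for AT2G22510. All of these rose less at 27°C. For the falls it was 1.8 for GH9B15, 1.59 for AT1G20790, 1.61 for CYP96A3, 2.72 for AT1G29090 and 2.68 for AT5G06630. It was 4.17 for SAUR11, 1.82 for CP1, 2.90 for G3Pp2 and 2.37 for AT2G47780, and these fell less at 27°C. PORA differed the other way, by -0.87, and fell more. CIPK20 among the rises and HEC2 and AT5G46960 among the falls were not called different (-0.05, 1.37 and -0.04). All these genes were chosen by their change in the 22°C samples that the difference reuses, which favours a smaller change at 27°C. With Heatin, the difference from the mock was 2.27 for SAUR11 and -1.30 for AT2G47780. Of the 12 fits with 1 sample left out, 2 kept the Heatin call of SAUR11. Fitted changes of genes without a read in a group, such as SAUR11, AT3G05727, AT4G22513 and AT2G33850, depend on the added 1. Groups of 3 samples were too small for a test of single outlying samples.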

How the results depend on the processing

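The counts of genes that rose or fell kept within 1.5 times under every alternative tried. With 1 sample left out, 3842 to 4179 genes rose and 3149 to 3430 fell more than 2-fold, and of any size 8429 to 9030 rose and 8496 to 9184 fell. Scaling to the total of gene reads shifted the median of all genes by -0.146 and gave 3474 up and 4043 down past 2-fold, so that 46.2% of these calls were rises in place of 55.0%. edgeR gave 4078 and 3231, and voom 4197 and 3202. With a replicate block the counts were 4006 and 3284. The difference between 22°C and 27°C was found at 10341 to 12201 genes with 1 sample left out, and that between mock and Heatin at 11 to 59, and at 71 with the replicate block. Every call of the 24 genes with the largest changes was the same under each of 19 alternatives. Of the 36 list medians, 34 kept their sign, and those of gibberellin and small heat shock proteins did not. Medians moved by over 1.5 times in fold for seed storage and oil bodies (-5.13 to -2.77) and floral organ identity (0.84 to 2.16). Of the list and named genes called, 28 lost the call without some sample, 5 of them past 2-fold, and the fold of 25 moved by over 1.5 times. The low depth at 7 days limits genes of few reads, of which 2471 tested had a mean below 10.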
